A study of Mus musculus with 12 samples.

Results

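Blood stem cell niche factors are the genes by which stromal cells of the bone marrow hold, feed and place blood stem and progenitor cells. The members were 9 genes chosen by name, Cxcl12, Kitl, Lepr, Angpt1, Vcam1, Il7, Nes, Pdgfrb and Csf1, among 21938 protein-coding genes of the GENCODE vM21 mouse annotation. All regions of the H3K27ac and H3K27me3 tables that overlapped a member's gene body extended by 50 kb on each side, called its window here, were taken. This gave 35 of 31617 H3K27ac regions and 21 of 28047 H3K27me3 regions.

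The libraries came from mouse mesenchymal stem cells (MSCs), stromal cells that can form bone, cartilage and fat, cultured at 2% oxygen. Young animals were aged 3 to 5 months and old animals 18 to 22 months, with 3 libraries for each age and mark, 12 in all. The labels gave no genotype, strain or sex and did not say how many animals a sample held, so p-values measure the spread between these samples only. Chromatin was profiled by CUT&RUN, in which an antibody tethers a nuclease that releases the DNA around a histone mark for sequencing. As the cells were expanded in culture, the values describe cultured stroma and not cells in the marrow.

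Both marks sit on the same residue, lysine 27 of histone H3, so a single histone tail carries one or the other. H3K27ac accompanies active promoters and enhancers, whereas H3K27me3 is laid down by Polycomb complexes over genes held silent. In the marrow, stromal cells that surround the sinusoids carry the leptin receptor and secrete the chemokine Cxcl12 and stem cell factor (Kitl). Signals of this kind retain blood stem cells near vessels and support their survival, while Il7 and Csf1 serve lymphoid progenitors and macrophages.

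The H3K27ac libraries held 2750953 to 5541429 reads and the H3K27me3 libraries 3622108 to 9947515, and old replicate 2 was the shallowest for both marks. A median region held 12 to 30 H3K27ac reads and 28 to 79 H3K27me3 reads per library. Of 10 stromal markers, 9 carried H3K27ac without H3K27me3 within 1 kb of a start site and 1, Nt5e, carried both. Of 8 blood markers, 4 carried H3K27me3, 3 carried neither mark and 1, Cd14, carried H3K27ac. Of 5 endothelial markers, 3 carried H3K27me3, Emcn carried neither and Pecam1 carried H3K27ac. None of these markers had a window (gene body plus 50 kb each side) called different between ages for either mark. The shares called were 0.684% of all H3K27ac windows and 0.436% of all H3K27me3 windows, so 0 calls among so few markers says little. What share of the cells was of another type was not tested.

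The start sites of the members differed in state. Cxcl12, Vcam1, Pdgfrb and Csf1 carried H3K27ac alone within 1 kb of a start site, which was 4 of 9 members against 44.5% of all protein-coding genes. Kitl, Lepr, Angpt1 and Il7 carried both marks, again 4 of 9, against 8.98% of all genes. Nes carried H3K27me3 alone, a state held by 24.8% of all genes. None of the members carried neither mark, a state of 21.7% of all genes. The share of each window under a mark spanned almost the whole scale, from 5.56% under H3K27ac at Lepr to 94.1% at Csf1, and from 0% under H3K27me3 at Csf1 to 78.7% at Cxcl12.

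**Figure D1:**
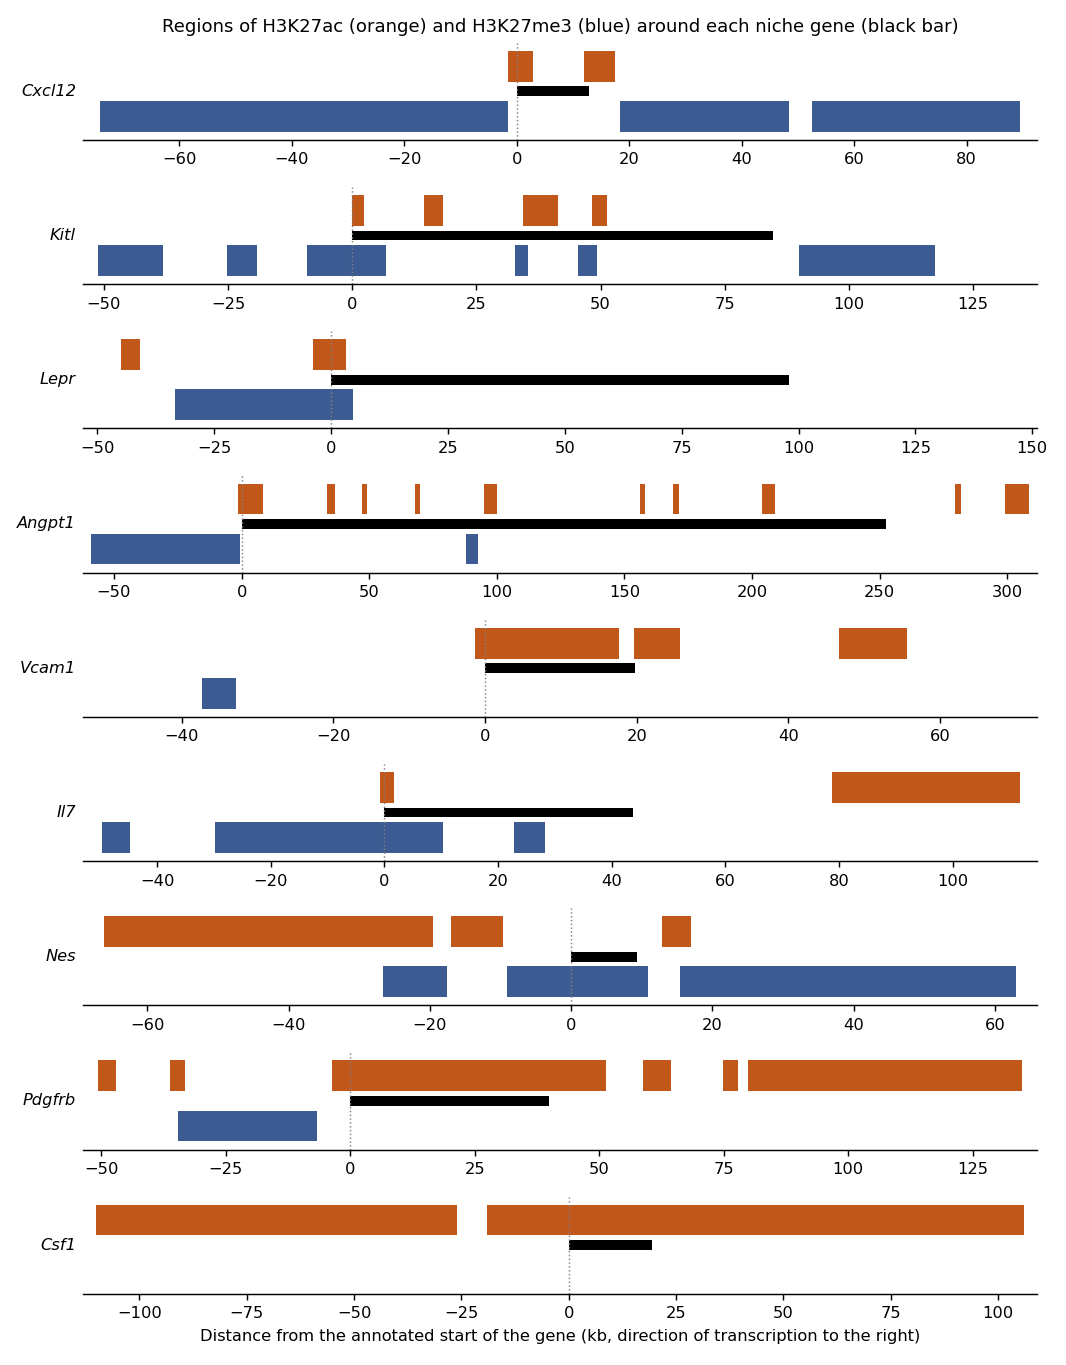
Regions of H3K27ac (orange) and H3K27me3 (blue) in the windows of the 9 genes, drawn by distance from the annotated start in kb with the gene body in black, each row on its own scale and regions drawn whole. Csf1 has no H3K27me3 region, whereas the H3K27ac of Cxcl12 is confined to 2 short regions between long H3K27me3 regions.

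Between old and young cells, no member was called for either mark. Among the 35 regions of H3K27ac, 0 were called at an adjusted p under 0.05 (limma, Benjamini-Hochberg over the whole table), and the background over all regions was 0.0822%. An unadjusted p under 0.05 was found for 3 of the 35, against 9.59% of all regions. The ages did not overlap in 7 of the 35, with old above young in 3 and below in 4, against 14.5% of all regions. Summed over windows, 0 of 9 members were called for H3K27ac against 0.684% of all gene windows, 1 had an unadjusted p under 0.05 against 12.1%, and 2 did not overlap between ages against 16.6%.

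For H3K27me3, 0 of 21 regions were called against 0.488% of all regions, 2 had an unadjusted p under 0.05 against 13.9%, and 3 did not overlap between ages against 19.1%. Of the 8 windows with H3K27me3, 0 were called against 0.436% of all windows, 1 had an unadjusted p under 0.05 against 14.4%, and 2 did not overlap against 19.5%. These shares of members lay near those of all regions and windows. A count model on the recovered reads (edgeR) also called 0 member regions and 0 member windows of either mark. It called 0.329% of all H3K27ac regions, 0.997% of H3K27ac windows, 0.998% of H3K27me3 regions and 0.688% of H3K27me3 windows. Its unadjusted p was under 0.05 for 4 of 35 member H3K27ac regions (9.48% of all) and 1 of 9 windows (12%), and for 4 of 21 member H3K27me3 regions (13.9% of all) and 1 of 8 windows (14.7%). The median log2 fold change, old minus young, of the member windows was 0.08 for H3K27ac and -0.05 for H3K27me3, beside 0.03 and -0.04 for all windows (3 replicates per age).

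**Figure D2:**
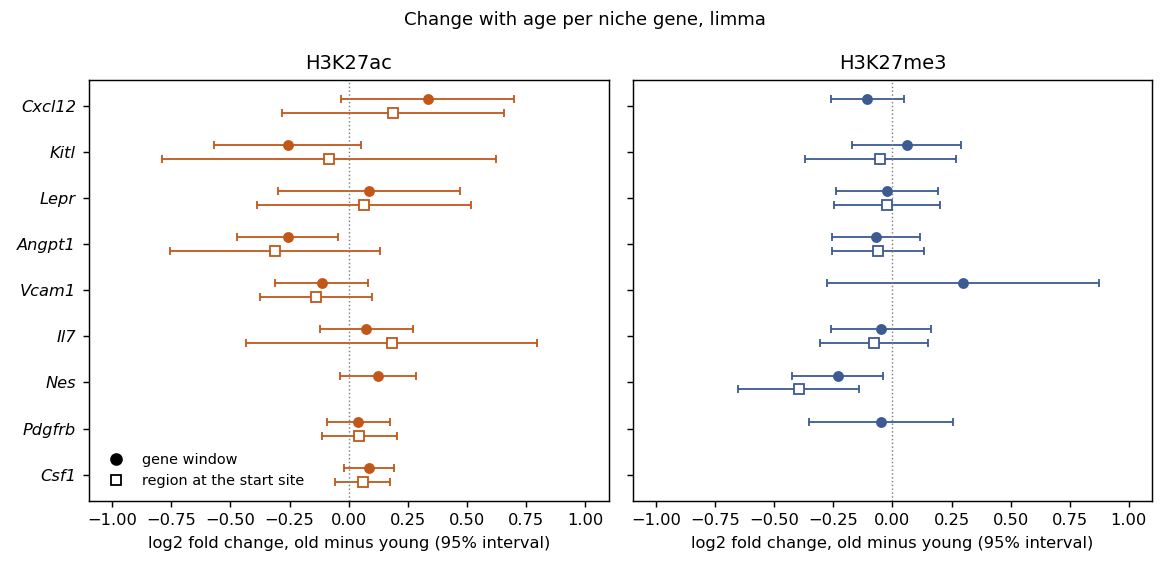
Log2 fold change, old minus young, of each member window (filled circle) and of the region at its start site (open square), with the 95% interval of the limma fit, n = 3 libraries per age. Most intervals span 0; those of the Angpt1 window for H3K27ac (-0.47 to -0.04) and of the Nes window (-0.42 to -0.04) and start region (-0.65 to -0.14) for H3K27me3 do not, and none was called after adjustment.

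Signal here is the read number of a region relative to library size and to a constant 0.5 kb, after median-of-ratios scaling between libraries. To compare genes, it was expressed as density, the scaled reads per kb of region relative to library size (RPKM). Cxcl12, the chemokine that binds Cxcr4 on blood stem cells, had an island of H3K27ac inside a Polycomb domain. Its start lay in a 4.5 kb H3K27ac region (chr6:117167001-117171500, GRCm38, exon, UTR and intron). A second region of 5.5 kb (chr6:117180501-117186000) overlapped exon and UTR at its 3′ end. Most of that region lay beyond the gene, which ends at 117181367. An H3K27me3 region of 72.5 kb ended 1.54 kb before the start, and others of 30 kb and 37 kb followed downstream, so that 78.7% of the window lay under H3K27me3 and 8.86% under H3K27ac.

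The 250 bases before the RefSeq start of Cxcl12 lay in the H3K27ac region and outside H3K27me3. They are shown as the promoter of the member with the most H3K27me3 in its window, with GC boxes (GGGCGG, both strands) in capitals, and stand at chr6:117168285-117168534 on the plus strand of GRCm38.p6:
Cxcl12: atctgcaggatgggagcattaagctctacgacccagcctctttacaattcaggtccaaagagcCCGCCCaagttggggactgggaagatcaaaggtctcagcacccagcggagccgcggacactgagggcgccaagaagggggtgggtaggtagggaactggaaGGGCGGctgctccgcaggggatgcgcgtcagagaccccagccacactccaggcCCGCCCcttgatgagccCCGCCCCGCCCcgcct
The stretch held 5 GC boxes, and 2 of them overlapped by 1 base. A GC box occurred in 32.7% of 32851 mouse promoters of this length. GC content was 64.4%, beside a median of 52.4% for all promoters.

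At the Cxcl12 start the scaled H3K27ac signal was 12.6, 11.4 and 10.8 in the young libraries and 10.3, 14.0 and 16.2 in the old ones. The ages overlapped, and the log2 fold change of 0.19 ± 0.23 (SE, n = 3) had an adjusted p of 0.852 (limma). It was 0.05 without old replicate 3 and 0.37 without old replicate 1. At the 3′ region the signal was 6.79, 7.998 and 8.79 in young and 11.4, 10.9 and 11.6 in old libraries. All old libraries lay above all young ones there, with a log2 fold change of 0.51 ± 0.25 and an adjusted p of 0.532 (limma, n = 3).

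The Cxcl12 window as a whole had H3K27ac signals of 19.4, 19.4 and 19.5 in young and 21.7, 24.9 and 27.8 in old libraries. All old values lay above the young ones, on 60, 34 and 60 young and 55, 32 and 55 old reads. At such read numbers the closeness of the young values is no measure of precision. The log2 fold change of 0.33 ± 0.18 gave an adjusted p of 0.469 (limma, n = 3). Its H3K27me3 signals were 265, 277 and 270 in young and 244, 261 and 250 in old libraries. Here all old libraries lay below all young ones, with a log2 fold change of -0.11 ± 0.07 and an adjusted p of 0.520 (limma, n = 3). Within this mark the 30 kb region just downstream of the gene (chr6:117187001-117217000) had the smallest p, at a log2 fold change of -0.23 ± 0.12 (adjusted p = 0.397, limma).

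Kitl encodes stem cell factor, the ligand of the receptor Kit. Its start (chr10, plus strand, gene body 100015630 to 100100416) lay under both marks, in a 2.5 kb H3K27ac region inside a 16 kb H3K27me3 region. In young cells the H3K27ac density at the start was 1.00 ± 0.22 RPKM (SD, n = 3), at the 32.7th percentile of all H3K27ac regions by mean over all libraries. The H3K27me3 density was 1.11 ± 0.05, at the 87.6th percentile of H3K27me3 regions. Of the members, Kitl had the most H3K27me3 regions, 6, and 3 further H3K27ac regions lay over its introns and exons.

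The RefSeq start of Kitl lies inside the GENCODE gene body, so only the 30 bases around its TATA box are given, at chr10:100015773-100015802 on the plus strand, with the TATA box (TATAAA) and the GC boxes in capitals:
Kitl: ggcGGGCGGGCGGgagggagctgTATAAAa
Kitl was the only one of the 5 members with a promoter entry whose 250 bases held a TATA box, at positions -25 to -20 from the start, and 12.4% of all promoters held one. Those bases also held 3 GC boxes and 1 kappaB-like motif (GGGNNTNCC, both strands, 14.0% of all promoters).

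At the Kitl start H3K27ac rested on 7 to 19 reads per library, and the log2 fold change of -0.08 had a 95% interval of -0.79 to 0.62. For H3K27me3 over the start it was -0.05, with an interval of -0.37 to 0.27. In the H3K27ac region of an intron (chr10:100030001-100034000) the signal was 7.44, 12.6 and 8.79 in young and 5.92, 6.23 and 6.06 in old libraries. The old libraries, on 15, 8 and 12 reads, lay below all young ones, on 23, 22 and 27 reads. The log2 fold change of -0.59 ± 0.29 did not pass (unadjusted p = 0.0463, adjusted p = 0.512, limma), and without young replicate 2 it was -0.39. In an H3K27me3 region 19.1 kb upstream (chr10:99990501-99996500) the signal was 6.28, 5.60 and 4.16 in young and 9.11, 8.48 and 7.25 in old libraries. All old libraries lay above the young ones, with a log2 fold change of 0.60 ± 0.23 (unadjusted p = 0.0184, adjusted p = 0.241, limma). Over the whole window the log2 fold change was -0.26 ± 0.16 for H3K27ac (adjusted p = 0.524, limma) and 0.06 ± 0.11 for H3K27me3 (adjusted p = 0.843, limma), and the ages overlapped for both.

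Lepr, the leptin receptor, marks the perivascular stroma that makes Cxcl12 and Kitl. A 38 kb H3K27me3 region (chr4:101684001-101722000) ran over its start, and a 7 kb H3K27ac region lay inside it (chr4:101713501-101720500). The rest of the gene body held no region of either mark, and 78.8% of the window was free of both. The first of its RefSeq promoters, where both marks overlap, is given up to the GENCODE start, at chr4:101717157-101717403 on the plus strand:
Lepr: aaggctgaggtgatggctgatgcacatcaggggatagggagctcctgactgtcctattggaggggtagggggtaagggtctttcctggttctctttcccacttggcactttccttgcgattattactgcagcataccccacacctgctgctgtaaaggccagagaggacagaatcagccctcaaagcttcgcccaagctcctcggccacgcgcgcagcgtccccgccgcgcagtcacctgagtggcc
None of the motifs searched was found in these letters: TATA box, GC box, kappaB-like, an Ebf-like palindrome (CCCNNGGG) and a hypoxia response core (ACGTG). The last 2 occurred in 11.8% and 16.6% of all promoters. The second RefSeq promoter of Lepr, also under both marks, held 1 GC box, at positions -164 to -159 from its start.

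At the Lepr start the H3K27ac signal was 11.97, 11.4 and 15.6 in young and 13.0, 12.5 and 15.1 in old libraries. The H3K27me3 signal was 59.1, 54.6 and 58.7 in young and 52.9, 61.6 and 55.4 in old libraries. The ages overlapped for both marks. The log2 fold change was 0.06 for H3K27ac (95% interval -0.39 to 0.52) and -0.02 for H3K27me3 (-0.25 to 0.20). The smallest p of its H3K27ac regions belonged to the 4 kb region 40.9 kb upstream, at a log2 fold change of 0.12 ± 0.30 (adjusted p = 0.936, limma).

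Angpt1 encodes angiopoietin-1, the ligand of the receptor Tek (Tie2), found on endothelium and blood stem cells. It was the longest member, at 252 kb on the minus strand of chromosome 15, and had the most H3K27ac regions, 10, of which 8 lay in or over the gene. A 58.5 kb H3K27me3 region began 0.524 kb before the start. A 10 kb H3K27ac region lay over the start itself, and the marks shared only 0.284% of the window.

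A 2 kb region in an intron of Angpt1 (chr15:42628001-42630000) had the smallest p of all member regions. The deposited table gave this region the state young and not that of both ages, a state drawn from the same libraries. Its H3K27ac signal was 8.41, 5.14 and 5.86 in the young and 3.16, 1.56 and 1.01 in the old libraries. These rest on 26, 9 and 18 reads in young and 8, 2 and 2 reads in old libraries. All old libraries lay below all young ones, with a log2 fold change of -1.61 ± 0.42 (SE, n = 3) and an unadjusted p of 0.000535 (limma). After adjustment over all regions p was 0.137 by limma and 0.0586 by edgeR. On the signal as deposited, without scaling between libraries, limma gave an adjusted p of 0.0465.

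Around this element the log2 fold changes of the Angpt1 H3K27ac regions ran from -0.40 to 0.49, and 1 of the other 9 was above 0. At the start the signal was 27.2, 16.0 and 16.6 in young and 20.5, 13.2 and 13.6 in old libraries. The ages overlapped, at a log2 fold change of -0.31 ± 0.22 (adjusted p = 0.693, limma), which was -0.07 without young replicate 1 and -0.51 without old replicate 1. The window sums were 94.8, 83.4 and 85.6 in young and 81.7, 64.6 and 74.7 in old libraries. All old values lay below the young ones, and the log2 fold change of -0.26 ± 0.11 had an unadjusted p of 0.0188 and an adjusted p of 0.296 (limma, n = 3). Without old replicate 2 the value was -0.17. The H3K27me3 of the window gave -0.07 ± 0.09 (adjusted p = 0.752, limma), and of its regions the intronic one at chr15:42584501-42589000 had the smallest p, at -0.27 ± 0.29 (adjusted p = 0.731, limma).

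Vcam1, the adhesion molecule that binds integrin alpha 4 beta 1 on blood cells, showed the densest H3K27ac of any member region. A 19 kb region (chr3:116112001-116131000) covered its start and most of the gene, at a density of 1.90 ± 0.14 RPKM in young and 1.73 ± 0.26 in old cells (SD, n = 3), the 97.1st percentile of all H3K27ac regions. The signal was 77.6, 71.4 and 67.1 in young and 65.5, 56.1 and 75.7 in old libraries. The ages overlapped, at a log2 fold change of -0.14 ± 0.12 (adjusted p = 0.755, limma). This was also the region with the smallest p of the window, whose own log2 fold change was -0.11 ± 0.10 (adjusted p = 0.691, limma). A single H3K27me3 region of 4.5 kb lay 32.8 kb upstream, with 13 to 34 reads per library and a log2 fold change of 0.30 ± 0.28 (adjusted p = 0.682, limma). Leaving out 1 library gave 0.02 (without young replicate 3) to 0.52 (without old replicate 3).

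Il7, a cytokine needed by lymphoid progenitors, carried both marks at its start on the minus strand of chromosome 3. A 39.5 kb H3K27me3 region (chr3:7603501-7643000) covered the start, with a 2.5 kb H3K27ac region inside it (chr3:7612001-7614500). The H3K27ac density there was 1.18 ± 0.11 in young and 1.36 ± 0.23 in old cells (SD, n = 3). The signal was 5.50, 5.71 and 6.51 in young and 7.10, 7.79 and 5.55 in old libraries, which overlapped at a log2 fold change of 0.18 ± 0.30 (adjusted p = 0.899, limma). The H3K27me3 signal over the start was 69.5, 70.2 and 75.6 in young and 79.4, 63.3 and 62.4 in old libraries, with a log2 fold change of -0.08 ± 0.11 (adjusted p = 0.809, limma).

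Most H3K27ac of the Il7 window did not lie at Il7. A 33 kb region (chr3:7502001-7535000) over the neighbouring gene Zc2hc1a gave 83.1 of the mean young window sum of 89.0. It also had the smallest p of the window's H3K27ac regions, at 0.07 ± 0.10 (adjusted p = 0.888, limma). The window log2 fold changes were 0.08 ± 0.10 for H3K27ac and -0.05 ± 0.10 for H3K27me3 (adjusted p = 0.821 and 0.866, limma).

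Nes encodes the intermediate filament protein nestin, used to mark a set of perivascular niche cells. It was the only member whose start lay under H3K27me3 without H3K27ac. The 20 kb H3K27me3 region (chr3:87962001-87982000) took in the whole gene, and the nearest H3K27ac region ended 9.58 kb before the start. The sequence before its start is shown as the contrast to Cxcl12, and was added after the values were seen. The part outside the GENCODE gene, at chr3:87970843-87971077 on the plus strand, has the GC boxes and the kappaB-like motif in capitals:
Nes: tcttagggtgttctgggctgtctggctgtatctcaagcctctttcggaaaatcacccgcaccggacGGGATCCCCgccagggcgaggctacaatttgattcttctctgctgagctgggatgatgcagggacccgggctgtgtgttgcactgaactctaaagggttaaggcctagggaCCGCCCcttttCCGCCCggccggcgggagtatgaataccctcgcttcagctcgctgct
Its 250 bases held 2 GC boxes and 1 kappaB-like motif at 58.8% GC, so GC boxes were found under H3K27me3 as well as under H3K27ac.

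Across the Nes start the H3K27me3 signal was 52.8, 48.0 and 63.7 in young and 44.9, 38.4 and 40.6 in old libraries. All old libraries lay below all young ones. The log2 fold change of -0.40 ± 0.12 (SE, n = 3) had an unadjusted p of 0.00422, the smallest of the member H3K27me3 regions, and an adjusted p of 0.135 by limma. On the signal as deposited the adjusted p was 0.0343 (limma), where the median of all H3K27me3 regions stood at -0.13. The smallest adjusted p by edgeR among member H3K27me3 regions was 0.124.

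The next H3K27me3 region of the Nes window, 47.5 kb over Bcan and Hapln2, was the densest of the members, at 2.12 ± 0.20 RPKM in young cells (SD, n = 3; the 99.4th percentile). Its log2 fold change was -0.21 ± 0.11 (adjusted p = 0.396, limma). Window sums of H3K27me3 were 256, 254 and 298 in young and 244, 246 and 199 in old libraries. These did not overlap, at a log2 fold change of -0.23 ± 0.09 (unadjusted p = 0.0215, adjusted p = 0.268, limma). Without young replicate 3 it was -0.16 and without old replicate 3 it was -0.13. The H3K27ac of the window lay mainly in a 46.5 kb region over Hdgf, Mrpl24, Rrnad1, Isg20l2 and Crabp2, and the window gave 0.12 ± 0.08 (adjusted p = 0.567, limma). Of its H3K27ac regions the 4 kb one downstream of Nes, in Bcan (chr3:87984001-87988000), had the smallest p, at 0.48 ± 0.31 (adjusted p = 0.658, limma).

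**Figure D3:**
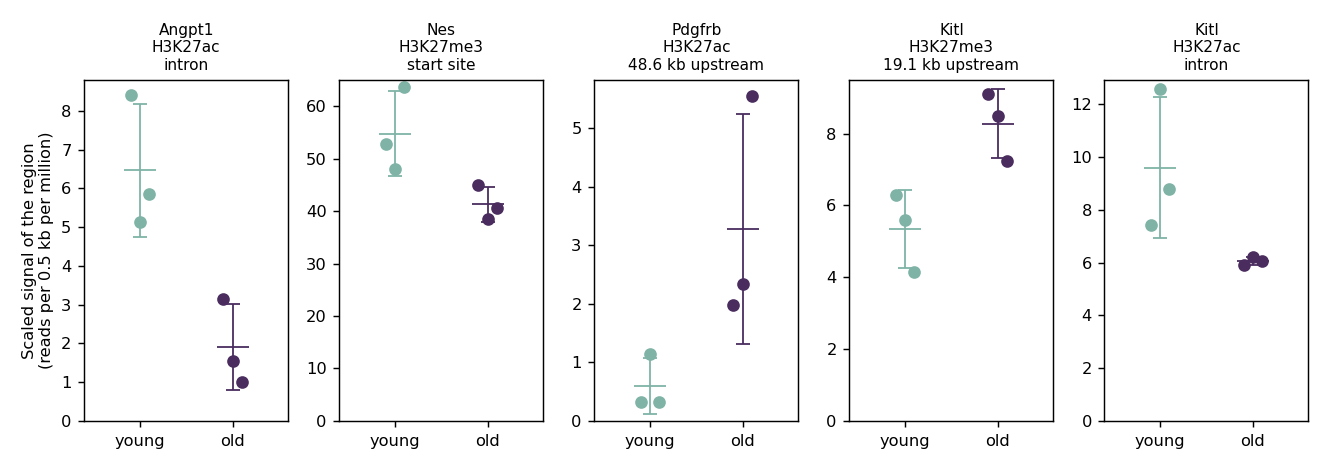
Scaled signal of the 5 member regions with an unadjusted p under 0.05, per library (points) with mean and SD (lines), n = 3 per age, each panel on its own axis from 0. Old libraries lie below young ones in the Angpt1 intron, at the Nes start and in the Kitl intron, and above them upstream of Pdgfrb and of Kitl; none passed adjustment over the table.

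Csf1 encodes the growth factor of macrophages, whose receptor is Csf1r. Of the members it had the largest share of its window under H3K27ac (94.1%). It was the only one with no H3K27me3 region in its window, the nearest lying 97.5 kb from its start. Its start lay in a 125 kb H3K27ac region (chr3:107654501-107779500) that also held the start of Ahcyl1 and ranked 124th by length among all H3K27ac regions. A second region of 84 kb upstream (chr3:107786501-107870500) ranked 365th. The bases before the RefSeq start are given as an example of a start far from H3K27me3, at chr3:107760470-107760719 on the minus strand, with 2 GC boxes and an Ebf-like palindrome in capitals:
Csf1: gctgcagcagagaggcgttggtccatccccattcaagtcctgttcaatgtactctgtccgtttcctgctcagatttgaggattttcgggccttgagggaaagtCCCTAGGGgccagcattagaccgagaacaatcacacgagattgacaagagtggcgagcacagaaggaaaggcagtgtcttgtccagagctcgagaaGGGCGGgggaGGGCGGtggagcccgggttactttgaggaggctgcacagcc
GC content was 56.4%, lower than the 64.4% of Cxcl12.

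In the 125 kb region the H3K27ac signal was 394, 395 and 427 in young and 418, 406 and 442 in old libraries. The ages overlapped, at a log2 fold change of 0.06 ± 0.06 (adjusted p = 0.794, limma). In the 84 kb region it was 238, 252 and 261 in young and 278, 272 and 266 in old libraries. All old values lay above the young ones after scaling, at 0.12 ± 0.07 (adjusted p = 0.568, limma), and on the signal as deposited the value was 0.00. The window gave 0.08 ± 0.05 (adjusted p = 0.546, limma). Its 95% interval of -0.02 to 0.19 was the narrowest of the members for H3K27ac, on 872 to 2111 reads per library.

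Pdgfrb, the platelet-derived growth factor receptor beta of pericytes and other stromal cells, lay on the plus strand of chromosome 18 inside a 55 kb H3K27ac region (chr18:61041501-61096500). The density there was 1.62 ± 0.05 RPKM in young and 1.67 ± 0.12 in old cells (SD, n = 3), the 93.8th percentile of H3K27ac regions. The signal was 183, 179 and 172 in young and 184, 171 and 197 in old libraries. The ages overlapped, at a log2 fold change of 0.05 ± 0.08 (adjusted p = 0.903, limma). A 28 kb H3K27me3 region over Cdx1 and Slc6a7 ended 6.65 kb before the start, at -0.05 ± 0.15 (adjusted p = 0.921, limma). The windows gave 0.04 ± 0.07 for H3K27ac and -0.05 ± 0.15 for H3K27me3 (adjusted p = 0.860 and 0.909, limma).

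At the far upstream edge of this window, in Slc6a7 (chr18:60994501-60996500), lay a 2 kb region with the state old in the deposited table. It held 1, 2 and 1 H3K27ac reads in young and 5, 3 and 11 reads in old libraries. Summed over libraries and scaled, the old to young ratio was 6.48 (95% exact counting interval 2.15 to 26.2), which covers counting error only. As the state of the region was drawn from the same libraries, this interval is no test of a difference. The log2 fold change was 1.75 ± 0.60 (SE, n = 3), with an adjusted p of 0.292 (limma). The adjoining region (chr18:60996501-60998000), with the state of both ages, had a log2 fold change of -0.305 ± 0.50. Downstream, the window reached the start of Csf1r, the receptor of Csf1, where a 5.5 kb H3K27ac region had a density of 1.47 ± 0.20 in young and 1.51 ± 0.24 in old cells (SD, n = 3). Csf1r is a defining gene of macrophages. Among the blood markers, Cd14 also had H3K27ac at its start, while Ptprc, Spi1 and Adgre1 had neither mark and Itgam, Lyz2, Cd3e and Gata1 had H3K27me3.

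**Figure D4:**
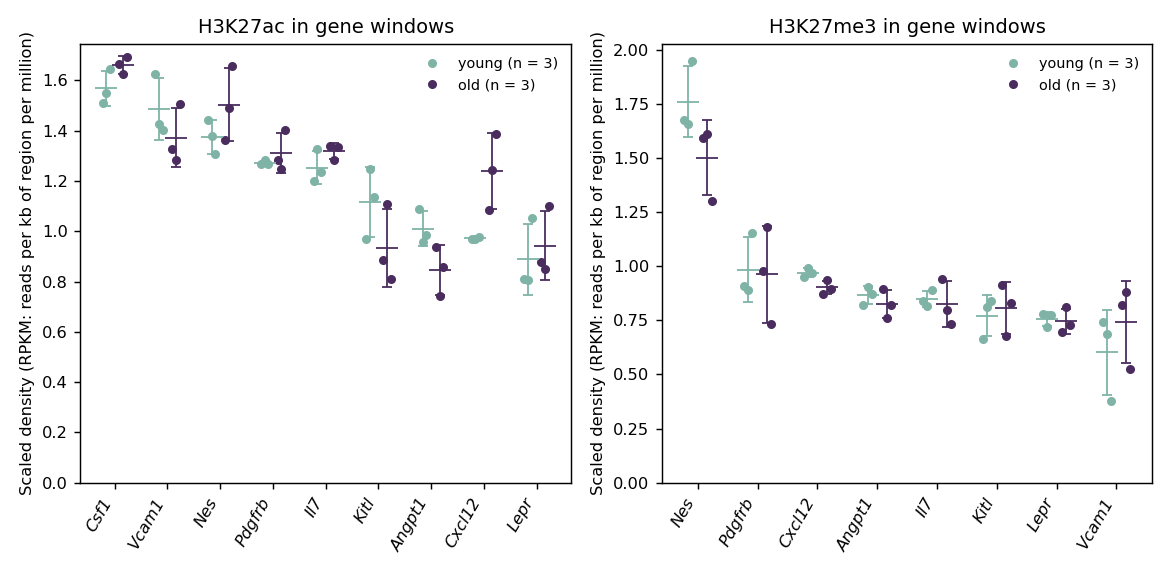
Scaled density of each mark in the member windows, in RPKM, per library (points) with mean and SD (lines), n = 3 per age, genes ordered by the young mean. For H3K27ac, Csf1 is densest in young cells (1.57) and Lepr least (0.888); for H3K27me3, Nes is densest (1.76) and Vcam1 least (0.602).

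Ordered by H3K27ac density of the window in young cells, the members ran from Csf1 (1.57 RPKM) through Vcam1 (1.49), Nes (1.38), Pdgfrb (1.27), Il7 (1.25), Kitl (1.12), Angpt1 (1.01) and Cxcl12 (0.973) to Lepr (0.888). The young libraries of neighbours in this order overlapped for every pair except Nes and Pdgfrb, and those of Nes and Il7 were set mainly by neighbouring genes. For H3K27me3, the Nes window stood apart at 1.76, and the others lay between 0.602 (Vcam1) and 0.984 (Pdgfrb). Neighbouring genes weighed here too. Of the mean young Nes sum of 269, 201 came from the region over Bcan and Hapln2, and the region over Nes itself had a density of 1.37. The Pdgfrb value came from 1 region, over Cdx1 and Slc6a7.

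The balance of the marks was the log2 window sum of H3K27ac minus that of H3K27me3, for tubes of the same sample number. As the tables were made separately, it is described and not tested. Young means ran from 4.15 ± 0.42 at Vcam1 and 2.53 ± 0.22 at Pdgfrb, through 0.05 ± 0.12 at Il7, -0.31 ± 0.16 at Angpt1 and -0.75 ± 0.19 at Nes, to -1.52 ± 0.09 at Kitl, -1.54 ± 0.19 at Lepr and -3.77 ± 0.03 at Cxcl12 (SD, n = 3). Vcam1 stood at the 95.6th percentile of all 15661 windows with both marks and Cxcl12 at percentile 11.3. Kitl and Lepr did not differ beyond their spread with these flanks of 50 kb. With flanks of 10 kb their young values did not overlap, at -1.14, -1.17 and -1.31 for Kitl and -2.26, -2.21 and -1.88 for Lepr. Csf1 had no balance, as its window held no H3K27me3. The balance of the members depended on the flank. Vcam1 had none with flanks of 10 kb, as its only H3K27me3 region lay 32.8 kb upstream. Young values were then 1.84, 1.83 and 1.40 at Pdgfrb and -0.46, -0.85 and -0.82 at Angpt1. The values of Il7 and Nes moved most, as the H3K27ac of their windows lay mainly over neighbouring genes. With flanks of 10 kb the young balance was -3.70, -3.64 and -3.60 at Il7 and -3.52, -3.63 and -3.71 at Nes. That of Cxcl12 was then -3.35, -3.50 and -3.40, so it was not the lowest member with that flank.

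At Cxcl12 the balance was -3.74, -3.80 and -3.76 in young and -3.46, -3.36 and -3.15 in old cells, a change of 0.44 toward H3K27ac without overlap. At Angpt1 it was -0.13, -0.45 and -0.36 in young and -0.46, -0.57 and -0.47 in old cells, a change of -0.19 without overlap. These were 2 of 8 members, against 19.3% of all windows. At Vcam1 the change was -0.41, at Nes 0.36 and at Kitl -0.32, and those at Pdgfrb, Lepr and Il7 were 0.09, 0.11 and 0.12; all of these overlapped between ages. The median change over the 8 members was 0.10, beside 0.06 over all windows. With the flank cut to 10 kb, 4 of 7 members did not overlap, as Il7 (0.24) and Nes (0.50) joined Cxcl12 (0.45) and Angpt1 (-0.23), against 17.6% of all windows with that flank.

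**Figure D5:**
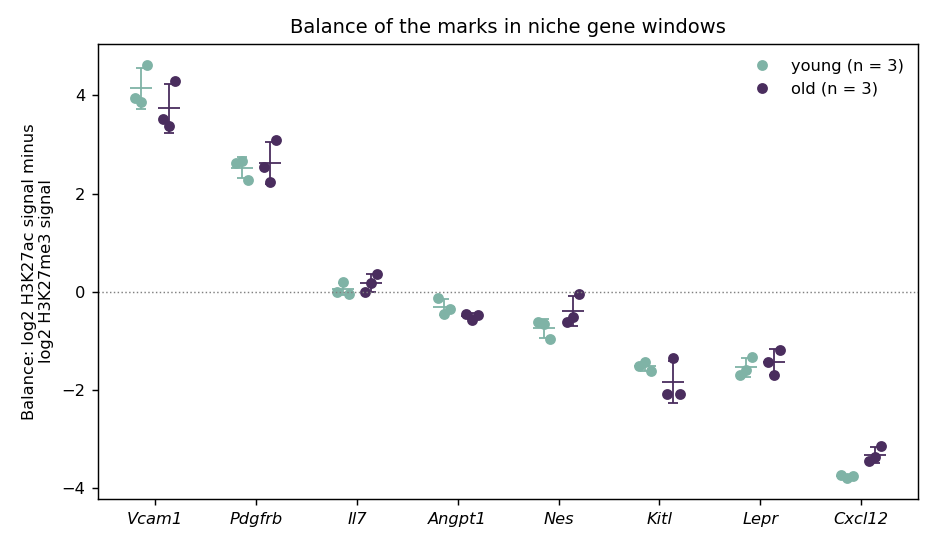
Balance of the marks (log2 H3K27ac minus log2 H3K27me3 window signal) per sample number for the 8 members with both marks, points with mean and SD, n = 3 per age; values above 0 have more H3K27ac signal than H3K27me3 signal, each on its own table's scale. Old and young do not overlap at Cxcl12 and at Angpt1.

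The receptors to which the members signal were in mixed states. Of 9 receptor genes, Cxcr4, Kit, Tek and Itga4 carried H3K27me3 at a start site, Il7r and Il2rg carried neither mark, Ackr3 carried both, and Itgb1 and Csf1r carried H3K27ac. The starts of Cxcl12, Kitl, Angpt1 and Vcam1 had H3K27ac, alone or with H3K27me3. Those of Cxcr4, Kit, Tek and Itga4, to which their products bind, had H3K27me3 alone, a state of 24.8% of all genes. The contrast did not hold for every receptor. Ackr3, Itgb1 and Csf1r had H3K27ac at their starts, Ackr3 with H3K27me3 as well, and Il7r and Il2rg had neither mark. Of 3 ligands of the member receptors, Lep and Pdgfb carried H3K27me3 and Pdgfd neither. No receptor or ligand window with a region was called for either mark (limma), against 0.684% of all H3K27ac windows and 0.436% of all H3K27me3 windows. Of the receptor windows, 0 of 6 with H3K27ac and 0 of 7 with H3K27me3 had an unadjusted p under 0.05, against 12.1% and 14.4% of all windows.

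A further 36 niche genes were read in the same way. At their start sites 17 carried H3K27ac, 8 both marks, 9 H3K27me3 and 2 neither. Of 34 windows with H3K27ac, 0 were called and 5 had an unadjusted p under 0.05, against 0.684% and 12.1% of all windows (edgeR also called 0). The smallest adjusted p-values were those of Has2 (log2 fold change -0.27, 0.113), Angptl2 (0.27, 0.117) and Spp1 (-0.18, 0.311), all by limma with 3 libraries per age. Of 30 windows with H3K27me3, 1 was called and 8 had an unadjusted p under 0.05, against 0.436% and 14.4% of all windows.

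The called window was that of Ebf1, a transcription factor of marrow stroma and of B cells, where H3K27me3 was higher in old cells. Its signal was 48.2 ± 5.56 in young and 73.1 ± 12.1 in old cells (SD, n = 3), with a log2 fold change of 0.59 ± 0.12 (SE) and an adjusted p of 0.0328 (limma). Its H3K27ac signal was far larger, at 1054 ± 5.50 in young and 1040 ± 10.6 in old cells, with a log2 fold change of -0.02 ± 0.05. The 3 H3K27me3 regions of this window lay more than 10 kb from the gene body. The call was lost without moderation (adjusted p = 0.224, limma), with regions counted by midpoint (0.297), and without young replicate 1 (0.155), 2 (0.0649) or 3 (0.126) or old replicate 2 (0.0615), and it held by edgeR (0.0160). Next by p were Esm1 (-0.31, adjusted p = 0.127, limma) and Fgf1 (-0.23, adjusted p = 0.216, limma).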

How the data were processed

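CUT&RUN tables for H3K27ac and H3K27me3 were used, with 3 young and 3 old MSC libraries each, grouped by the labels. The submitters' processing notes name Bowtie2, Picard and mm10 (GRCm38). The region caller and its settings were not given in the sources used here, and the publication supplied with the series describes other libraries, so none of its methods was used. The authors deposited 1 signal value per region and library under the name RPKM. In each column 100% of values were whole multiples of the smallest step (within 0.01 reads), so reads were recovered. Library totals and densities also rest on a constant length of 0.5 kb, which that check cannot test. 

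Scaling by the median of ratios was done within each table, and log2(signal + 0.5) was fitted with limma 3.58.1 (R 4.3.3), with a variance trend and robust moderation, two-sided, adjusted by Benjamini and Hochberg over the whole table. Such fold changes understate low signal. No filter on low values was applied. Window sums counted overlapping regions whole. Alternatives were other pseudocounts, scaling, filters, windows, moderation, edgeR 4.0.16 on the reads, and leaving out each replicate. The fit was tested on simulated data, with changes larger than any that limma gave for a member and in features without low read numbers. That test does not show whether smaller changes, or those on few reads, would be called. Promoters (250 bases before the start, without the bases after it) came from RefSeq, GRCm38.p6, and 5 of 9 members matched. Named regions were those at start sites and that with the smallest p per member and mark. Members and lists were chosen with earlier results of these data known. Regions lying in the window of more than 1 gene count for each. One blood marker of the list is not reported here.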

Additional observations from a re-analysis of the deposited data

How the results depend on the processing

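Member calls stayed at 0 for both marks, in regions and windows, under a pseudocount of 0.1, edgeR on recovered reads, no trend or robust moderation, a minimum mean of 10 reads, windows of 10 kb or by region midpoint, and the omission of any replicate. The exception was the signal as deposited, which called 1 H3K27ac region (the Angpt1 intron, -1.72) and 1 H3K27me3 region (the Nes start, -0.52). That setting moved the median of all regions to -0.12 for H3K27ac and -0.13 for H3K27me3, and of all windows to -0.08 and -0.16. It turned the H3K27ac fold changes of the Lepr (-0.051), Pdgfrb (-0.074) and Csf1 (-0.060) start regions and of the Il7 window's 33 kb region (-0.054), those of the Lepr (-0.030), Il7 (-0.044), Pdgfrb (-0.078) and Csf1 (-0.035) windows, and the H3K27me3 of the Kitl window (-0.062). The Kitl start turned for H3K27me3 under edgeR (0.037) and the Kitl window with 10 kb flanks (-0.004). For the balance, 1 of 8 members did not overlap on the signal as deposited (6.28% of all windows), and 4 of 7 with 10 kb flanks (17.6%). Leaving out each replicate gave 2 to 3 members, against 27.8% to 33.1% of all windows.

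Omitting 1 replicate moved 34 of 43 fold changes of members, none of them called, by over 1.5 times, and turned small values. For H3K27ac these ranged from -0.22 to 0.09 at the Kitl start, -0.047 to 0.215 in the region upstream of Lepr, -0.02 to 0.20 at the Lepr start, -0.027 to 0.21 in its window, -0.004 to 0.098 at the Pdgfrb start and -0.008 to 0.076 in its window. For H3K27me3 they ranged from -0.18 to 0.16 at the Kitl start, -0.043 to 0.181 in its window, -0.081 to 0.025 at the Lepr start and in its window, -0.47 to 0.12 in the Angpt1 intron, -0.147 to 0.037 in the Il7 window and -0.205 to 0.138 for Pdgfrb. 

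Deviations from the age mean correlated little between same-numbered young and old libraries. The correlations were 0.07, 0.02 and -0.05 for H3K27ac and 0.02, 0.04 and -0.08 for H3K27me3. With the few reads of a median region, such values cannot show whether same-numbered samples shared a batch. With the replicate number as a block, 0 members were called for either mark, and calls over all regions were 81 (26 without) for H3K27ac and 309 (137 without) for H3K27me3. By edgeR they were 104 and 280. Regions with few reads have wide intervals, as the Angpt1 intron (SE 0.42) and the edge of the Pdgfrb window (SE 0.60). So does a 0.5 kb H3K27me3 region upstream of Il7 (SE 0.56), with the state young in the deposited table.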
